A study of Mus musculus with 12 samples.

Results

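The 6 genes Cd36, Slc27a4, Acsl5, Fabp1, Fabp2 and Dbi, which serve fatty acid uptake and binding, were followed in the small bowel of male C57BL/6 mice. They were taken by their gene symbols from the 35791 genes of the count files. All 6 were found once each and all 6 were among the 13158 genes with enough counts for a test. The series asks how the bowel left after ileocecal resection adapts, and whether the milk oligosaccharide 2'-fucosyllactose (2'-FL) alters that. Ileocecal resection removes the end of the ileum and the cecum. The 12 libraries form 4 groups of 3. The Post 2'-FL group was taken 8 weeks after resection with 2'-FL at 2.5 g/L, and the Post control group 8 weeks after resection without it. The Pre 2'-FL group is labelled as before resection with 2'-FL, and the Pre control group as before resection with no 2'-FL. Mice were 8 to 10 weeks old at surgery, no genetic change is named, and the labels put every animal on a liquid diet, dated to postoperative day 7, before standard chow. Supplementation is stated to start on day 0, the day of surgery, and all bowels to be collected 8 weeks after it, which is at odds with the Pre labels. Groups here follow the label of each library. The bowel segment, the hour of collection and any link between libraries and mice are not given in the sources used here, so age, diet and segment cannot be told apart from resection.

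After a meal, lipases free fatty acids and monoacylglycerol in the gut lumen, and enterocytes take them up across the brush border. Membrane proteins such as CD36 and FATP4 help uptake, acyl-CoA synthetases trap the fatty acid as acyl-CoA, and small cytosolic proteins carry fatty acids and acyl-CoA to the endoplasmic reticulum. There they are rebuilt into triacylglycerol and packed into chylomicrons. Uptake of fat takes place mainly in the upper and middle small bowel, while bile acids are recovered in the ileum.

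Library totals lay between 5663275 and 9385266 counts, so that 1 count stood for 0.107 to 0.177 CPM (counts scaled to an equal library total), and each of the 6 genes had at least 407 counts in every library. The 7 enterocyte markers were tested and present in every group. Levels in a library followed transcript length. Spearman's rho between transcript length and a gene's deviation from its own mean, taken across 12656 genes that are no independent replicates, was -0.44, -0.56 and -0.60 in Post 2'-FL, -0.03, -0.21 and 0.35 in Post control, 0.50, 0.39 and 0.36 in Pre 2'-FL, and 0.42, 0.45 and 0.26 in Pre control. Short transcripts as a class thus read high in Post 2'-FL libraries. Fabp1, Dbi and Fabp2 have short transcripts (553, 569 and 965 nt), and Cd36, Slc27a4 and Acsl5 longer ones (3399, 4054 and 4243 nt). Every comparison is given as counted and again with the trend of each library on length and GC content taken out, called corrected below. The labels name no batch.

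Fabp1, Fabp2 and Dbi, the genes of the small cytosolic carriers, were higher after resection than before it over both arms, as counted and corrected. The transporter gene Slc27a4 was higher only when corrected, by about as much as the carriers. Cd36 and the synthetase gene Acsl5 did not pass edgeR's test in any of the 6 comparisons over all libraries, although DESeq2 called Cd36 in the control arm and in the interaction. In the comparison of Post 2'-FL with Post control, Fabp1 and Dbi passed the test as counted, and none of the 6 genes did when corrected. Levels are CPM with edgeR's scaling of library sizes, and differences are log2 fold changes ± standard error from edgeR's quasi-likelihood F test, called at a Benjamini-Hochberg adjusted p under 0.05 over all 13158 genes.

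Cd36 (Entrez 12491, mm10 chromosome 5, 17781690 to 17888959) encodes the scavenger receptor and fatty acid translocase of the plasma membrane. Its level was 90.22, 151.4 and 75.59 CPM in Post 2'-FL and 163.9, 80.81 and 151.4 CPM in Post control. It was 178.8, 77.42 and 130.6 CPM in Pre 2'-FL and 74.77, 46.47 and 72.3 CPM in Pre control. The 3 Pre control libraries were the lowest of the 12, although Pre control 1 lay close under Post 2'-FL 3, and the other 3 groups overlapped. Cd36 is also made by fat cells, macrophages and endothelial cells. Summed adipocyte markers were 83 to 111 CPM in Post 2'-FL, 101 to 134 CPM in Post control, 70.1 to 379 CPM in Pre 2'-FL and 71.3 to 85.2 CPM in Pre control. Cidec was the largest part of this sum in every library but Pre 2'-FL 1, with 100 of 101 CPM in Post control 1. Adipoq was 5.11, 0.461 and 2.41 CPM in Post 2'-FL and 0, 1.64 and 5.1 CPM in Post control. It was 48.4, 5.62 and 7.1 CPM in Pre 2'-FL and 1.78, 2.94 and 4.04 CPM in Pre control. The highest adipocyte sum was that of Pre 2'-FL 1, the library with the highest Cd36 level. Summed macrophage markers were 256 to 576 CPM in Post 2'-FL, 146 to 228 CPM in Post control, 281 to 496 CPM in Pre 2'-FL and 298 to 536 CPM in Pre control. Lyz2 was the largest part of this sum in every library, with 486 of 576 CPM in Post 2'-FL 1. Csf1r was 6.81 to 8.76 CPM in Post 2'-FL, 11.3 to 27.6 in Post control, 38.3 to 78.1 in Pre 2'-FL and 38 to 73.4 in Pre control. Over both arms 2 of 7 macrophage markers fell as counted and 5 corrected, and 0 rose. Of all tested genes 31% fell as counted and 18.5% corrected. Summed endothelial markers were 31.4 to 37.9 CPM in Post 2'-FL, 27.9 to 43.9 CPM in Post control, 70.4 to 155 CPM in Pre 2'-FL and 25 to 130 CPM in Pre control. The part of these cells in the Cd36 level was not tested.

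Slc27a4 (Entrez 26569, chromosome 2, 29802634 to 29817522) encodes fatty acid transport protein 4 (FATP4), a membrane protein with acyl-CoA synthetase activity. Its level was 536.4, 1177 and 1383 CPM in Post 2'-FL and 1661, 1807 and 1500 CPM in Post control. It was 1260, 589.2 and 571.7 CPM in Pre 2'-FL and 1384, 1180 and 892.2 CPM in Pre control. Each Post control library was above all libraries of the other groups, and Post 2'-FL 1 was the lowest of all 12. Corrected, the levels were 1137, 1592 and 2065 CPM in Post 2'-FL and 1691, 1901 and 1345 CPM in Post control. The corrected Pre levels were 928.5, 473.9 and 466.6 CPM in Pre 2'-FL and 1165, 950.1 and 661.8 CPM in Pre control. Corrected Post libraries then lay above the Pre libraries, except that Post 2'-FL 1 lay below Pre control 1.

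Acsl5 (Entrez 433256, chromosome 19, 55251861 to 55296628) encodes long-chain acyl-CoA synthetase 5, the main synthetase of this family in intestinal mucosa. Its level was 1010, 1124 and 1293 CPM in Post 2'-FL and 1507, 1438 and 1818 CPM in Post control. It was 1985, 1049 and 1087 CPM in Pre 2'-FL and 2161, 1794 and 1488 CPM in Pre control. Post 2'-FL lay below Post control without overlap, and the Pre libraries overlapped both. The Acsl5 group means lay closest together of the 6 genes relative to their size, with 1140 ± 142 CPM in Post 2'-FL, 1590 ± 202 CPM in Post control, 1370 ± 530 CPM in Pre 2'-FL and 1810 ± 337 CPM in Pre control (SD, n = 3 each).

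Fabp1 (Entrez 14080, chromosome 6, 71199879 to 71205034) encodes liver fatty acid binding protein, made in liver and enterocytes, which also binds acyl-CoA and other lipids. Fabp2 (Entrez 14079, chromosome 3, 122895072 to 122899506) encodes intestinal fatty acid binding protein, made almost only in enterocytes. As counted, Fabp1 and Fabp2 had the largest log2 increases over both arms, while corrected Slc27a4 (1.09) stood above Fabp2 (0.97). The promoters of Fabp1 and Fabp2 both hold a spaced repeat of a kind that nuclear receptors are known to bind. These promoters from RefSeq (GRCm38.p6) are therefore shown. Each runs from 250 bases before the annotated start, and capitals mark the motifs found on either strand.
Fabp1, chr6:71199629-71199928, plus strand: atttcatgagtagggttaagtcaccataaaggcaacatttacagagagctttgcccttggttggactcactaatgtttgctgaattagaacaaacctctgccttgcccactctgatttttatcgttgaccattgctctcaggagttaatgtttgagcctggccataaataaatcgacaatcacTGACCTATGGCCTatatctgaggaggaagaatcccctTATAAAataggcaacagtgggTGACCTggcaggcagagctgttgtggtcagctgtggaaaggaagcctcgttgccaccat
Fabp2, chr3:122894822-122895121, plus strand: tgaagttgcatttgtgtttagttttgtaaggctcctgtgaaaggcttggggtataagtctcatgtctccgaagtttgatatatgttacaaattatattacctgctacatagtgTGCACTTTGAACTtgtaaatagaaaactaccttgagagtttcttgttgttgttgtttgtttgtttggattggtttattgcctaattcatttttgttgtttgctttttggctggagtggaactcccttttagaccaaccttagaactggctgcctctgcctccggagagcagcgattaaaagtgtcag
The spaced repeat, 2 copies of AGNNCA with 1 base between them, was found on the minus strand at -67 in Fabp1 (plus strand TGACCTATGGCCT) and at -137 in Fabp2 (plus strand TGCACTTTGAACT), counted back from the start. It was in 2.78% of 32851 windows of this length. The half-site AGGTCA (16.3% of windows) was at -67, inside the repeat, and at -9 in Fabp1 and at -228 in Cd36. TATAAA (13.6%) was at -30 in Fabp1, and GGGCGG (35.7%) came 2 times in Cd36 and 3 times in Slc27a4. Neither Acsl5 nor Dbi held any of the 4. The Cd36 window (chr5:17835847-17836146, minus strand) lies inside the gene span given above. Its positions thus count from an annotated start within the gene. The Acsl5 window (chr19:55253119-55253418) also lies inside its gene span. The motifs were chosen after the windows had been read, and a match is not a measured site.

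Fabp1 had 5368, 2076 and 8887 CPM in Post 2'-FL and 1461, 2218 and 1293 CPM in Post control. It had 1252, 312.2 and 832.7 CPM in Pre 2'-FL and 607.6, 373.3 and 676.7 CPM in Pre control. All 6 Post libraries were above all 6 Pre libraries, although Post control 3 and Pre 2'-FL 1 differed little, and Post 2'-FL 2 lay within the Post control range. Corrected, Fabp1 had 1657, 1221 and 4231 CPM in Post 2'-FL, 1674, 2311 and 2054 CPM in Post control, 2004, 407 and 1030 CPM in Pre 2'-FL, and 878.4, 503.7 and 820.9 CPM in Pre control. The highest corrected Pre library, Pre 2'-FL 1, then lay above 3 Post libraries.

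Fabp2 had 42430, 33580 and 34850 CPM in Post 2'-FL and 20580, 23490 and 13470 CPM in Post control. It had 7898, 4413 and 3019 CPM in Pre 2'-FL and 10920, 9263 and 5904 CPM in Pre control. The 4 groups formed 3 steps, with Post 2'-FL above Post control and Post control above both Pre groups, which overlapped. Fabp2 alone took 3.05% to 3.40% of all counts in Post 2'-FL, 1.44% to 2.26% in Post control, 0.315% to 0.924% in Pre 2'-FL and 0.577% to 1.09% in Pre control. By count it ranked 1 or 2 among all genes in every Post library and 3 to 26 in Pre libraries. Corrected, it had 12990, 19770 and 16910 CPM in Post 2'-FL, 21190, 23760 and 18660 CPM in Post control, 11890, 6113 and 4050 CPM in Pre 2'-FL, and 16070, 13170 and 7989 CPM in Pre control. The corrected Post groups overlapped each other and Pre control 1 lay above Post 2'-FL 1.

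Dbi (Entrez 13167, chromosome 1, 120113280 to 120121096) encodes acyl-CoA binding protein, also called diazepam binding inhibitor, which carries long-chain acyl-CoA in the cytosol of most cells. Its level was 2030, 1114 and 1897 CPM in Post 2'-FL and 551.2, 975.2 and 504.4 CPM in Post control. It was 328.8, 311.9 and 395.8 CPM in Pre 2'-FL and 332.9, 332.1 and 335.4 CPM in Pre control. Like Fabp2 it formed 3 steps without overlap, and the Pre control libraries were nearly equal. Corrected, Dbi had 781.9, 703.5 and 985.7 CPM in Post 2'-FL, 634, 1001 and 775 CPM in Post control, 494.2, 386.2 and 466.9 CPM in Pre 2'-FL, and 458, 423.3 and 379.9 CPM in Pre control. The step between Post and Pre stayed free of overlap, and the 2 Post groups then overlapped.

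**Figure D1:**
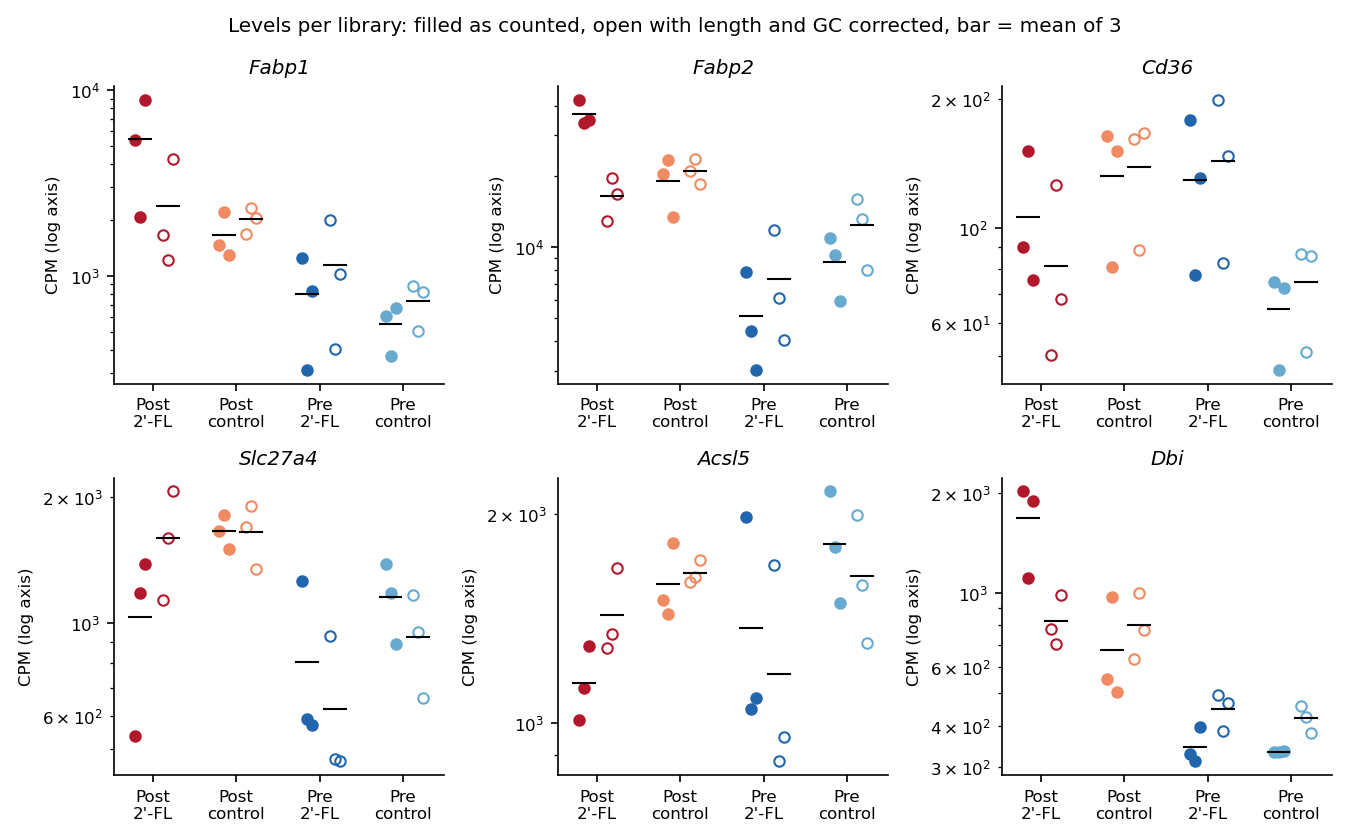
Level of each of the 6 genes in CPM on a log axis, 1 point per library, in Post 2'-FL, Post control, Pre 2'-FL and Pre control. Filled points are as counted, open points are corrected for length and GC, and bars are means of 3 libraries. Filled Fabp2 and Dbi points stand in 3 steps, and of the open points only those of Dbi keep Post apart from Pre.

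Per kilobase of transcript, which allows levels of different genes to be set side by side, Fabp2 was the highest of the 6 in every library. It averaged 38300 ± 4960 CPM per kb in Post 2'-FL, 19900 ± 5340 in Post control, 5300 ± 2600 in Pre 2'-FL and 9010 ± 2650 in Pre control (SD, n = 3 each). Fabp1 came next by its mean, at 9840 ± 6160 CPM per kb in Post 2'-FL, 3000 ± 891 in Post control, 1440 ± 851 in Pre 2'-FL and 999 ± 288 in Pre control. Dbi followed, at 2950 ± 870 CPM per kb in Post 2'-FL, 1190 ± 456 in Post control, 607 ± 78.0 in Pre 2'-FL and 586 ± 3.03 in Pre control. Levels of Fabp1 and Dbi per kb overlapped in Pre 2'-FL but in no other group. Slc27a4 averaged 255 ± 109 CPM per kb in Post 2'-FL, 408 ± 37.9 in Post control, 199 ± 96.9 in Pre 2'-FL and 284 ± 61.0 in Pre control. Acsl5 averaged 269 ± 33.6 CPM per kb in Post 2'-FL, 374 ± 47.7 in Post control, 324 ± 125 in Pre 2'-FL and 428 ± 79.4 in Pre control. These neighbours in the order overlapped in 3 groups, and in Pre control Acsl5 lay above Slc27a4 (350.7 to 509.3 and 220.1 to 341.5 CPM per kb). Cd36 was lowest in every library, at 31.1 ± 11.8 CPM per kb in Post 2'-FL, 38.8 ± 13.2 in Post control, 37.9 ± 14.9 in Pre 2'-FL and 19.0 ± 4.61 in Pre control. These are values as counted, in which short transcripts of Post 2'-FL libraries read high.

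Resection over both arms was read from the mean of the 2 changes from Pre to Post. Of the 6 genes, 3 rose and none fell, where 56.3% of all tested genes were called in either direction and 25.3% were higher. Fabp1 rose by 2.18 ± 0.37 (adjusted p = 0.000288), Fabp2 by 2.00 ± 0.29 (adjusted p = 9.74e-05) and Dbi by 1.65 ± 0.20 (adjusted p = 3.85e-05). These are fold changes of 4.52, 3.99 and 3.14. In all 3 the 6 Post libraries did not overlap the 6 Pre libraries, which held for 8.01% of tested genes with Post higher. Slc27a4 differed by 0.44 ± 0.25 (adjusted p = 0.151), Cd36 by 0.37 ± 0.24 (adjusted p = 0.198) and Acsl5 by -0.23 ± 0.19 (adjusted p = 0.318). The median over the 6 genes was 1.05, and over all tested genes -0.10. Of 7 enterocyte markers none rose and 3 fell as counted, where 31% of tested genes fell. Corrected, none of the 7 was called in either direction, where 18.5% of tested genes fell. The part of cell makeup in these values was not tested.

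Corrected, 4 of the 6 genes rose over both arms, where 43.4% of tested genes were called and 24.9% were higher. Fabp1 rose by 1.25 ± 0.36 (adjusted p = 0.0134), Fabp2 by 0.97 ± 0.28 (adjusted p = 0.0136), Slc27a4 by 1.09 ± 0.22 (adjusted p = 0.00169) and Dbi by 0.90 ± 0.15 (adjusted p = 0.000413). Corrected Fabp2, Slc27a4 and Dbi thus changed by about 2-fold each, at 1.96, 2.14 and 1.87, and Fabp1 by 2.38. Only Dbi kept Post and Pre apart in every library, as 9.56% of tested genes did with Post higher. Corrected Acsl5 differed by 0.15 (95% interval -0.24 to 0.54) and corrected Cd36 by 0.04 (95% interval -0.51 to 0.60). The sign of Acsl5 thus depended on the correction. The as-counted difference of Slc27a4 passed the test without Pre 2'-FL 1 (0.72, adjusted p = 0.0170) or without Post 2'-FL 1 (0.60, adjusted p = 0.0374), the libraries at the edges of their groups. No other call over both arms changed when 1 library was left out.

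The control arm compares Post with Pre without 2'-FL, and age, diet and segment cannot be told apart from resection in it. There 1 of the 6 genes was called, Dbi, where 10.7% of tested genes were called and 4.41% were higher. Dbi rose to 677 ± 259 CPM in Post control, against 333 ± 1.72 CPM in Pre control (SD, n = 3 each), a log2 change of 1.02 ± 0.28 (adjusted p = 0.0338) and of 0.93 ± 0.21 corrected (adjusted p = 0.0146). Fabp1 averaged 1660 ± 493 CPM in Post control and 553 ± 159 CPM in Pre control, a difference of 1.58 ± 0.51 (adjusted p = 0.0600). Fabp2 averaged 19200 ± 5150 CPM in Post control and 8700 ± 2560 CPM in Pre control, a difference of 1.14 ± 0.40 (adjusted p = 0.0750). Cd36 averaged 132 ± 44.8 CPM in Post control and 64.5 ± 15.7 CPM in Pre control, a difference of 1.04 ± 0.35 (adjusted p = 0.0665). Slc27a4 differed by 0.52 ± 0.36 (adjusted p = 0.344) and Acsl5 by -0.19 ± 0.27 (adjusted p = 0.660).

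In 5 of the 6 genes, all but Acsl5, the groups were apart. Each had its 3 Post control libraries above the 3 Pre control libraries, as counted and corrected, which held for 17.3% of tested genes as counted and 22% corrected. Corrected differences in this arm were close to those as counted for Fabp1, Cd36 and Dbi. They were smaller for Fabp2, larger for Slc27a4 and turned in sign for Acsl5. They were 1.45 ± 0.52 for Fabp1, 0.77 ± 0.40 for Fabp2, 0.90 ± 0.37 for Cd36 and 0.83 ± 0.31 for Slc27a4, with adjusted p between 0.0761 and 0.198, and 0.02 ± 0.26 for Acsl5. Corrected, 1 of 6 was called as well, beside 12.5% of tested genes called and 7.55% higher. At an unadjusted p under 0.05, 4 of the 6 genes passed as counted and 4 corrected, beside 29.5% and 31.6% of tested genes. As counted these were Fabp1, Fabp2, Cd36 and Dbi, and corrected Slc27a4 took the place of Fabp2. DESeq2 called 4 of the 6 as counted, beside 14.9% of tested genes. Besides Dbi these were Fabp1 (1.61, adjusted p = 0.00874), Fabp2 (1.16, adjusted p = 0.00777) and Cd36 (1.06, adjusted p = 0.0259).

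The calls of the control arm turned on single libraries. The Dbi call was lost without any of the 3 Pre control libraries (adjusted p = 0.0602, 0.0864 and 0.109 without replicates 1, 2 and 3), without Post control 1 (0.0615) and without Post control 2, the library with the highest Dbi level (0.69, adjusted p = 0.169). Corrected, it was lost without Pre control 3 (adjusted p = 0.0600) and Post control 2 (adjusted p = 0.0779). Libraries of the other arm enter through the shared estimate of spread. Fabp1 passed as counted without Pre 2'-FL 1 (adjusted p = 0.0444), Pre 2'-FL 2 (0.0393) or Post 2'-FL 2 (0.0346), and corrected without Pre 2'-FL 1 or Pre 2'-FL 2 (adjusted p = 0.0430 and 0.0432). Fabp2 passed without Pre 2'-FL 1 (adjusted p = 0.0399), Cd36 without Pre 2'-FL 2 or Post 2'-FL 2 (adjusted p = 0.0497 and 0.0495), and corrected Slc27a4 without Pre 2'-FL 1 (adjusted p = 0.0477).

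In the 2'-FL arm, 3 of the 6 genes were called, all higher, where 55.2% of tested genes were called and 25.2% were higher. Fabp2 rose to 37000 ± 4790 CPM in Post 2'-FL, against 5110 ± 2510 CPM in Pre 2'-FL (SD, n = 3 each), a log2 change of 2.85 ± 0.42 (adjusted p = 0.000111). Fabp1 rose to 5440 ± 3410 CPM in Post 2'-FL, against 799 ± 471 CPM in Pre 2'-FL, a change of 2.77 ± 0.53 (adjusted p = 0.000700). Dbi rose to 1680 ± 495 CPM in Post 2'-FL, against 346 ± 44.4 CPM in Pre 2'-FL, a change of 2.28 ± 0.29 (adjusted p = 5.25e-05). Libraries of these 3 genes did not overlap, as in 27.9% of tested genes with Post higher. Slc27a4 differed by 0.35 ± 0.36 (adjusted p = 0.416), Acsl5 by -0.27 ± 0.27 (adjusted p = 0.418) and Cd36 by -0.29 ± 0.34 (adjusted p = 0.495).

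Corrected, 3 of the 6 genes again passed in the 2'-FL arm, beside 35.9% of tested genes called and 21.1% higher, but Slc27a4 took the place of Fabp1. Slc27a4 rose by 1.36 ± 0.32 (adjusted p = 0.00496), Fabp2 by 1.17 ± 0.40 (adjusted p = 0.0357) and Dbi by 0.87 ± 0.21 (adjusted p = 0.00590). Fabp1 differed by 1.05 ± 0.51 (adjusted p = 0.124) and its libraries overlapped. Cd36 differed by -0.81 ± 0.37 (adjusted p = 0.101) and Acsl5 by 0.29 ± 0.26 (adjusted p = 0.405). The corrected changes of Fabp1, Fabp2 and Dbi came to 2.07-fold, 2.25-fold and 1.83-fold, against 6.81-fold, 7.23-fold and 4.86-fold as counted.

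Single libraries also moved calls in the 2'-FL arm. The corrected Fabp2 call was lost when Pre 2'-FL 2 (adjusted p = 0.0986), Pre 2'-FL 3 (0.127), Post 2'-FL 2 (0.0876) or Post 2'-FL 3 (0.0729) was left out. Pre 2'-FL 1 had the highest Slc27a4, Acsl5, Fabp1, Fabp2 and Cd36 levels of its group. Without it, Slc27a4 passed as counted (0.90, adjusted p = 0.0431), and Fabp1 (1.74, adjusted p = 0.0203) and Acsl5 (0.65, adjusted p = 0.0447) passed when corrected. Corrected Cd36 passed as lower without Pre 2'-FL 2 (-1.08, adjusted p = 0.0431) or Post 2'-FL 2 (-1.26, adjusted p = 0.0196).

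**Figure D2:**
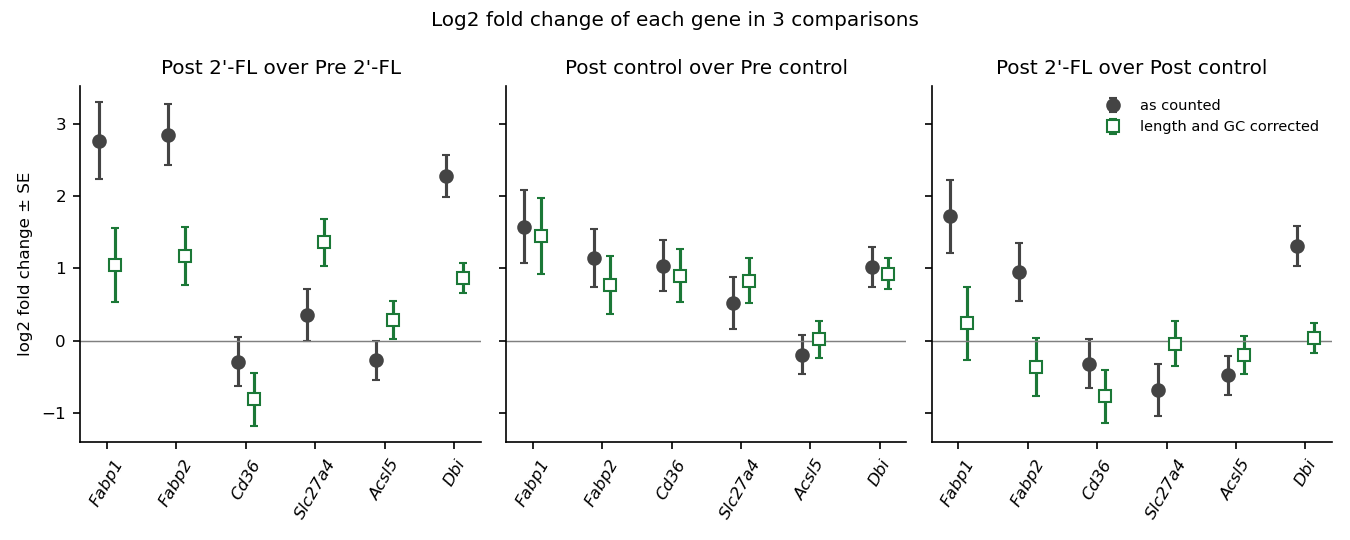
Log2 fold change of each of the 6 genes with its standard error (bars) in Post 2'-FL over Pre 2'-FL, Post control over Pre control and Post 2'-FL over Post control, as counted (filled circles) and corrected for length and GC (open squares). For each gene, both kinds of value lie closer together in the control arm than in the 2'-FL arm. In the right panel Fabp1, Fabp2 and Dbi stand at 1.72, 0.95 and 1.31 as counted and at 0.24, -0.36 and 0.04 corrected.

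Post 2'-FL over Post control asks what the supplement did after resection. As counted, 2 of the 6 genes were called, both higher, where 38.1% of tested genes were called and 18.8% were higher. Dbi averaged 1680 ± 495 CPM in Post 2'-FL and 677 ± 259 CPM in Post control (SD, n = 3 each), a log2 difference of 1.31 ± 0.28 (adjusted p = 0.00292). Fabp1 averaged 5440 ± 3410 CPM in Post 2'-FL and 1660 ± 493 CPM in Post control, a difference of 1.72 ± 0.51 (adjusted p = 0.0176), with overlap of Post 2'-FL 2. Fabp2 differed by 0.95 ± 0.40 (adjusted p = 0.0725), with its libraries apart, as in 25.3% of tested genes with Post 2'-FL higher. Slc27a4 differed by -0.68 ± 0.36 (adjusted p = 0.147) and Acsl5 by -0.48 ± 0.27 (adjusted p = 0.179), each with Post 2'-FL below Post control in every library, as in 25.4% of tested genes. Cd36 differed by -0.32 ± 0.34 (adjusted p = 0.483). DESeq2 also called Fabp2 (0.97, adjusted p = 0.0119), beside 39.2% of tested genes.

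Corrected, none of the 6 genes was called between the Post groups by edgeR, while 21.8% of tested genes were called and 10.4% were higher. None passed at an unadjusted p under 0.05 either, as 37.1% of tested genes did. Differences were 0.24 (95% interval -0.85 to 1.32) for Fabp1, -0.36 (-1.21 to 0.49) for Fabp2 and 0.04 (-0.41 to 0.48) for Dbi. They were -0.77 (-1.57 to 0.02) for Cd36, -0.04 (-0.71 to 0.62) for Slc27a4 and -0.20 (-0.75 to 0.35) for Acsl5. The as-counted differences of Fabp1, Fabp2 and Dbi lay above the upper ends of these intervals. As counted, the Fabp1 call was lost without Post control 1, Post control 3 or Post 2'-FL 3 (adjusted p = 0.0510, 0.0693 and 0.0956), and Fabp2 passed without Pre 2'-FL 1 (1.00, adjusted p = 0.0275). Corrected Cd36 passed as lower without Post 2'-FL 2 (-1.24, adjusted p = 0.0287). Post 2'-FL had the lowest enterocyte markers, with a summed level of 6560 to 12900 CPM, against 18800 to 25000 CPM in Post control. Of the 7 enterocyte markers 5 were lower in Post 2'-FL as counted, and 5 corrected, beside 19.3% and 11.4% of all tested genes. In such bulk libraries fewer cells of a type and less RNA per cell cannot be told apart. The part of cell makeup in the results was not tested.

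**Figure D3:**
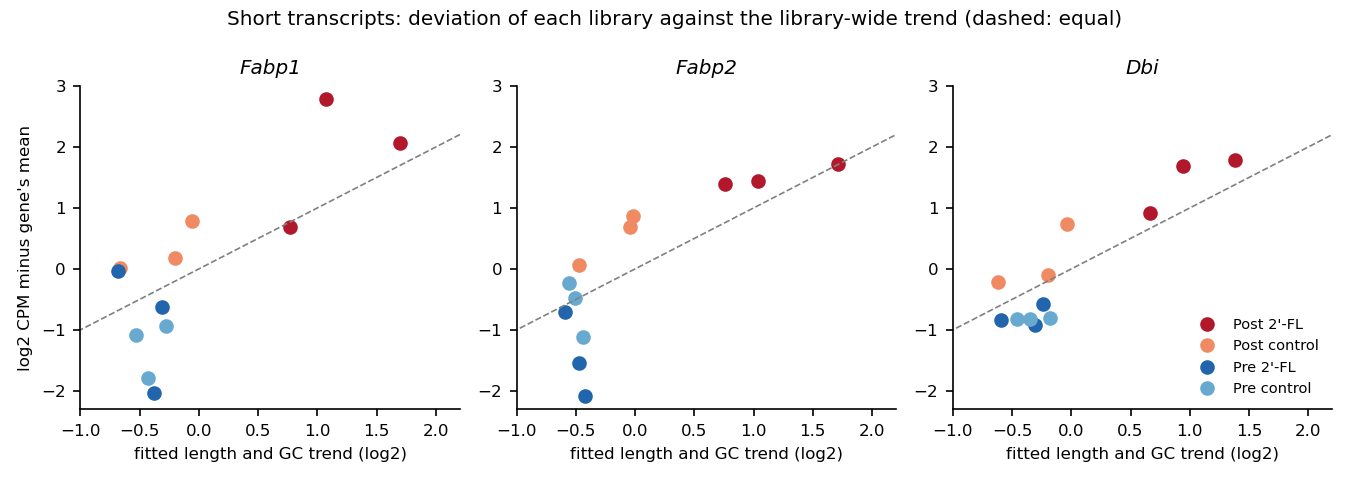
Deviation of Fabp1, Fabp2 and Dbi in each library from the gene's own mean (log2 CPM, vertical axis) against the trend that all genes of the same length and GC content followed in that library (log2, horizontal axis). On the dashed line the gene does exactly what its length and GC content give. Post 2'-FL libraries lie far to the right, between 0.66 and 1.71, Post control points lie above the line and most Pre points below it.

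For a transcript of the length and GC content of Fabp1, the trend was 1.70, 0.77 and 1.07 log2 units in Post 2'-FL, -0.20, -0.06 and -0.67 in Post control, -0.68, -0.38 and -0.31 in Pre 2'-FL, and -0.53, -0.43 and -0.28 in Pre control. Fabp1 itself stood at 2.06, 0.69 and 2.79 log2 units from its mean in Post 2'-FL, 0.18, 0.78 and 0.01 in Post control, -0.04, -2.04 and -0.63 in Pre 2'-FL, and -1.08, -1.79 and -0.93 in Pre control. In Post control the trend was thus at or below 0 while Fabp1 stood above its mean. For Slc27a4 the trend ran the other way, with -1.08, -0.44 and -0.58 in Post 2'-FL and 0.44, 0.31 and 0.29 in Pre 2'-FL. Post 2'-FL 1 had the extreme trend value for both genes.

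Before resection, Pre 2'-FL over Pre control, none of the 6 genes was called by edgeR, as counted or corrected. Of all tested genes 0.0152% were called either way and 0% higher. DESeq2 called none of the 6 either, beside 0.182% of tested genes. Cd36 was the only 1 of the 6 to pass at an unadjusted p under 0.05, as counted and corrected, beside 3.4% and 4.55% of tested genes. It averaged 129 ± 50.7 CPM in Pre 2'-FL and 64.5 ± 15.7 CPM in Pre control (SD, n = 3 each), a difference of 1.00 ± 0.35 (unadjusted p = 0.0114, adjusted p = 1). Its libraries were apart, as in 4.32% of tested genes with Pre 2'-FL higher, but overlapped when corrected. Fabp2 differed by -0.77 ± 0.39, Slc27a4 by -0.51 ± 0.36, Acsl5 by -0.40 ± 0.27, Fabp1 by 0.53 ± 0.50 and Dbi by 0.05 ± 0.28, all with overlap. The 95% interval for Dbi ran from -0.54 to 0.64.

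Whether the arms differed was tested directly as an interaction, in which the control arm's change is subtracted from that of the 2'-FL arm. As counted, 1 of the 6 genes was called, Dbi at 1.26 ± 0.39 (adjusted p = 0.0441), where 15.5% of tested genes were called and 7.47% were higher. Fabp2 stood at 1.71 ± 0.56 (adjusted p = 0.0509), Cd36 at -1.32 ± 0.49 (adjusted p = 0.0766), Fabp1 at 1.18 ± 0.71 (adjusted p = 0.262), Slc27a4 at -0.17 ± 0.51 and Acsl5 at -0.07 ± 0.38. Corrected, none of the 6 genes was called by edgeR, where 0% of tested genes were. Dbi stood at -0.06 ± 0.30, Fabp2 at 0.40 ± 0.56 and Fabp1 at -0.41 ± 0.72. Of the 6, Cd36 was then the only one to pass at an unadjusted p under 0.05, at -1.71 ± 0.52 (adjusted p = 0.106), beside 20% of tested genes. As counted, DESeq2 called Dbi, Fabp2 (1.77, adjusted p = 0.00255) and Cd36 (-1.28, adjusted p = 0.0474), beside 20.1% of tested genes. The Cd36 level was higher in Post control than Pre control in every library, while Post 2'-FL and Pre 2'-FL overlapped. The Dbi call was lost without any 1 of 10 libraries (adjusted p = 0.0586 to 0.103) and kept without Post control 2 or Post 2'-FL 2. Fabp2 passed when Post 2'-FL 2 (adjusted p = 0.0477) or Pre 2'-FL 1 (0.0336) was left out, and likewise without Post control 2 (0.0443) and without Pre control 3 (0.0499). Cd36 passed without Post control 2 (-1.51, adjusted p = 0.0426) or Post 2'-FL 2 (-1.67, adjusted p = 0.0242), and without the second of these also when corrected (-2.17, adjusted p = 0.0258).

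Ratios of 2 genes within a library do not depend on library size, and where the transcripts are of like length, little on the length trend. They are given without a test. Counts of Acsl5 over those of Slc27a4, with transcripts of 4243 and 4054 nt, were 1.88, 0.955 and 0.935 in Post 2'-FL and 0.908, 0.796 and 1.21 in Post control. They were 1.57, 1.78 and 1.90 in Pre 2'-FL and 1.56, 1.52 and 1.67 in Pre control. The synthetase thus outnumbered the transporter in every Pre library by at least 1.52 to 1, and 5 of the 6 Post libraries stood below all Pre ones, the exception being Post 2'-FL 1. GC content differs between these transcripts (47.6% and 56.8%), and the library trend did not cancel. In Post 2'-FL 1 the fitted length and GC trend was -0.34 log2 units for Acsl5 and -1.08 for Slc27a4. Corrected levels in that library were 1283 CPM for Acsl5 and 1137 CPM for Slc27a4.

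Counts of Fabp1 over those of Dbi (553 and 569 nt) were 3.06 ± 1.46 in Post 2'-FL, 2.49 ± 0.199 in Post control, 2.30 ± 1.42 in Pre 2'-FL and 1.66 ± 0.474 in Pre control (SD, n = 3 each). Only between the control groups did these libraries not overlap, at 2.27 to 2.65 in Post control and 1.12 to 2.02 in Pre control. Counts of Fabp1 over those of Fabp2 were 0.0618 to 0.255 in Post 2'-FL, 0.0710 to 0.0960 in Post control, 0.0707 to 0.276 in Pre 2'-FL and 0.0403 to 0.115 in Pre control, so that all groups overlapped and Fabp2 outnumbered Fabp1 in each library. Counts of Cd36 over those of Acsl5 were lowest in Pre control, at 0.0259 to 0.0486, and 0.0562 to 0.135 over the other 9 libraries.

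**Figure D4:**
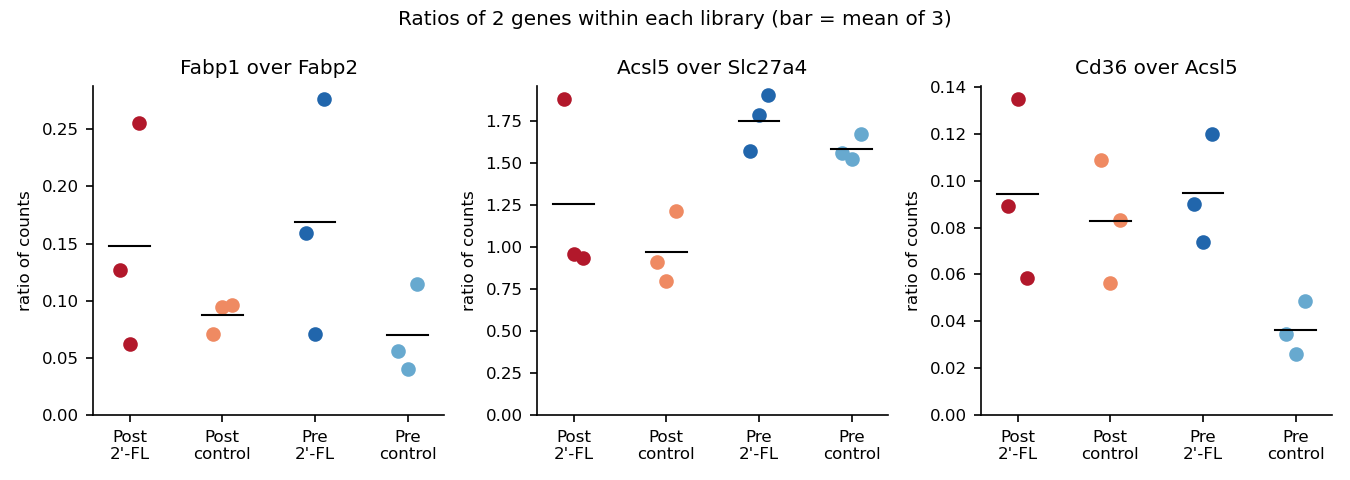
Ratios of counts of 2 genes within each library, in Post 2'-FL, Post control, Pre 2'-FL and Pre control, 1 point per library with bars at the means, for Fabp1 over Fabp2, Acsl5 over Slc27a4 and Cd36 over Acsl5. Acsl5 over Slc27a4 is at or above 1.52 in each Pre library and at or below 1.21 in 5 of 6 Post libraries.

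The genes whose profiles over the 12 libraries came nearest were sought among 8349 genes with a mean of at least 10 CPM, by the root mean square difference of log2 levels centred on each gene's mean. As counted, the nearest to Fabp1 were Apoc2, a chylomicron and lipoprotein apolipoprotein (0.31), and Guk1, a guanylate kinase (0.54). Those to Fabp2 were Sar1b, the GTPase of chylomicron export from the endoplasmic reticulum (0.36), and 9430038I01Rik (0.40), and those to Dbi were Tmem256 (0.13) and Hint3 (0.16). All 6 of these have transcripts of 492 to 1201 nt. Slc27a4 lay nearest to Cideb, a lipid droplet and lipoprotein protein (0.17), and Cyp4f14, a fatty acid and eicosanoid hydroxylase (0.20). Acsl5 lay nearest to Gpd2, the mitochondrial glycerol-3-phosphate dehydrogenase (0.16), and Ddhd2, a lipase (0.17), and Cd36 to Dnase1 (0.29) and Ddx60 (0.30). The distance of a profile to a neighbour is a description and carries no test.

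Corrected, the neighbours changed for every gene except that Dnase1 stayed with Cd36 (0.31), now after Sp100 (0.28). Fabp2 and Slc27a4 then shared both neighbours, Entpd5, an endoplasmic reticulum nucleotidase (0.21 from Fabp2, 0.20 from Slc27a4), and the gene model Gm9994 (0.23 and 0.17). Among the 6 genes, the closest pair as counted was Slc27a4 and Acsl5 (0.44) and corrected it was Fabp2 and Slc27a4 (0.24), which stood 1.10 apart as counted. Fabp1 lay nearest to Ppm1j (0.37) and Pgrmc2 (0.46), Acsl5 to Fahd1 (0.14) and Gpt, alanine aminotransferase (0.15), and Dbi to Sec22b, a vesicle fusion protein (0.12), and Cisd1, a mitochondrial iron-sulfur protein (0.12).

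Of 67 other genes of fatty acid handling in 8 lists, 52 were tested. The other 15, among them Fabp3, Fabp7 and Acsbg1, had at most 14 counts in a library. Over both arms 12 of the 52 rose and 13 fell as counted, beside 56.3% of all tested genes called, and 14 rose and 14 fell corrected, beside 43.4%. The median of the 52 was -0.12 as counted and 0.11 corrected, against -0.10 and 0.03 over all tested genes. Values of single genes in what follows are log2 fold changes over both arms, and named genes are the 3 with the smallest p of each list.

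Of 6 other tested uptake and transport genes, none rose and 3 fell as counted, and 4 corrected. Slc27a1, which encodes FATP1 of muscle and fat, fell by 1.33 ± 0.28 (adjusted p = 0.00130), with 2.62 ± 0.164 CPM in Post 2'-FL, 3.86 ± 0.676 CPM in Post control, 10.5 ± 6.54 CPM in Pre 2'-FL and 6.14 ± 1.34 CPM in Pre control (SD, n = 3 each). Got2, mitochondrial aspartate aminotransferase and also described as a plasma membrane fatty acid binding protein, fell by 0.81 ± 0.18, and Scarb1, the HDL receptor, by 1.01 ± 0.31, and all 3 also fell corrected. Slc27a1 was highest in Pre 2'-FL 1 at 17.7 CPM, the library with the highest adipocyte marker sum. Over both arms 31% of all tested genes fell as counted and 18.5% corrected. Of 8 endothelial markers 7 fell, as counted and corrected, and of 6 tested adipocyte markers 3 fell as counted and 4 corrected. Their part in the values of this list was not tested.

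Of the other fatty acid binding protein genes, 3 were tested, of which none rose and 1 fell as counted, and 3 fell corrected. Fabp6, whose protein binds bile acids in the ileum, fell by 4.36 ± 1.23 (adjusted p = 0.00789), with 0.557 to 2.00 CPM in Post 2'-FL, 0.308 to 1.09 CPM in Post control, 0.483 to 16.9 CPM in Pre 2'-FL and 0.475 to 165 CPM in Pre control. Pre control 2, Pre 2'-FL 2 and Pre control 1 held nearly all of it, and the other 3 Pre libraries lay within the Post range. Fabp4, the fat cell and endothelial form, differed by -0.70 (adjusted p = 0.120) as counted and fell by 1.90 corrected (adjusted p = 0.00120). Its highest library was Pre 2'-FL 1 at 143 CPM, which also had the highest adipocyte marker sum. Fabp5, the epidermal form, differed by 0.26 as counted (adjusted p = 0.271) and fell by 0.55 corrected (adjusted p = 0.0151). As counted, Fabp5 was higher in Post 2'-FL than in Pre 2'-FL (0.88, adjusted p = 0.015) and than in Post control (1.26, adjusted p = 0.00377), and corrected in neither (adjusted p = 0.0956 and 0.738). The transcripts of Fabp4 and Fabp5 have 896 and 987 nt.

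Of 7 other tested activating enzymes, none rose and 2 fell, as counted and corrected. Acss1, mitochondrial acetyl-CoA synthetase, fell by 1.14 ± 0.15, with 19.0 ± 2.04 CPM in Post 2'-FL, 31.1 ± 3.46 CPM in Post control, 43.7 ± 4.64 CPM in Pre 2'-FL and 65.5 ± 18.9 CPM in Pre control. Acsm3, a medium-chain acyl-CoA synthetase, fell by 0.58 ± 0.23 and Acsl4, which prefers arachidonic acid, differed by 0.26 ± 0.22. Of 5 other acyl-CoA binding genes, 3 rose and none fell, as counted and corrected. Acbd4, a member of the acyl-CoA binding domain family of Dbi, rose by 1.21 ± 0.17 (adjusted p = 7.49e-05) as counted and by 1.37 corrected, with 239 ± 10.4 CPM in Post 2'-FL, 183 ± 39.8 CPM in Post control, 81.1 ± 27.5 CPM in Pre 2'-FL and 100 ± 7.89 CPM in Pre control. Its relative Acbd5, a peroxisomal protein, rose by 0.58 ± 0.14 and Scp2, sterol carrier protein 2, by 0.80 ± 0.17. Like Dbi, Acbd4 was called as higher in each arm, as counted and corrected, and its transcript is longer (2075 nt).

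Of 7 acyl-CoA thioesterase genes, whose enzymes release free fatty acid from acyl-CoA, 4 rose as counted and 3 corrected, and none fell. Acot7 rose by 0.90 ± 0.13, Acot8 by 0.82 ± 0.13 and Acot12 by 1.19 ± 0.22, and corrected by 0.71, 0.54 and 1.13. Of 11 re-esterification genes, 4 rose and 2 fell as counted, and 6 rose and 2 fell corrected. Lpin1, a phosphatidate phosphatase, fell by 2.10 ± 0.29 and Gpam, the mitochondrial glycerol-3-phosphate acyltransferase, by 1.75 ± 0.25, both at levels of 14.7 CPM or less. Agpat9, the glycerol-3-phosphate acyltransferase also called Gpat3, rose by 0.55 ± 0.14. Of 2 tested receptors for luminal lipids and short-chain fatty acids, Ffar2 fell by 0.66 ± 0.24 and Ffar4 differed by -0.13 ± 0.38.

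Of 11 transcription factor genes, 1 rose and 4 fell as counted, and 2 rose and 2 fell corrected. Ppara, the fatty acid sensor that drives fatty acid oxidation genes and also Fabp1, fell by 1.31 ± 0.23 (adjusted p = 0.000309) as counted and by 0.96 corrected. It had 16.9 ± 3.19 CPM in Post 2'-FL, 25.7 ± 5.55 CPM in Post control, 39.5 ± 5.67 CPM in Pre 2'-FL and 68.5 ± 31.7 CPM in Pre control (SD, n = 3 each). Ppard fell by 1.14 ± 0.24 and by 0.57 corrected. Rxra, the common partner of these receptors, fell by 0.70 ± 0.18 as counted (adjusted p = 0.00474), but corrected it differed by 0.09 (adjusted p = 0.633).

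**Figure D5:**
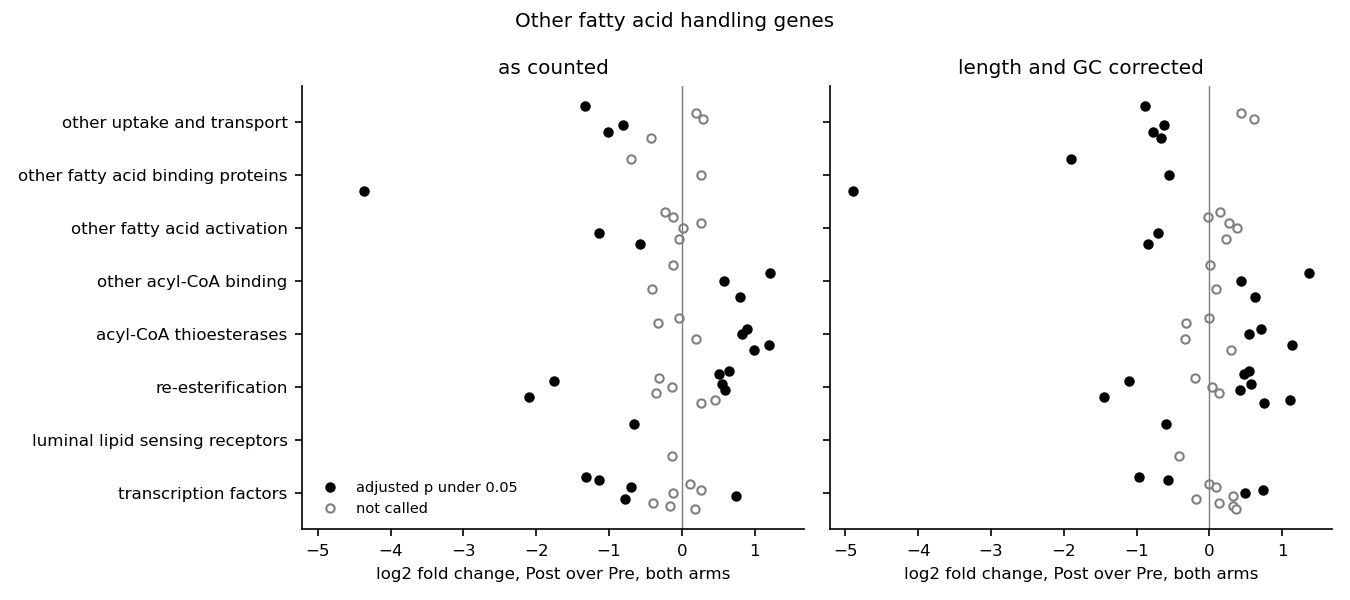
Log2 fold change over both arms of the 52 tested genes of fatty acid handling by list, as counted (left) and corrected (right), 1 point per gene, filled at an adjusted p under 0.05. Acyl-CoA binding and thioesterase genes called lie to the right of 0 in both panels, and called uptake and transport genes to the left.

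In the single arms, 1 of the 52 genes rose and 3 fell in the control arm, as counted and corrected, which were Acbd4, and Fabp6, Acss1 and Ppara, beside 10.7% and 12.5% of all tested genes called. The total of 4 was 0 as counted without Post control 2, 1 without either of Pre control 2 and Post control 1, and 8 without Pre control 1. Corrected, it was 0 without Pre control 2 and without Post control 2, 1 without Post control 1, 2 without Post control 3, 7 without Pre 2'-FL 1 and 8 without Pre control 1. In the 2'-FL arm 12 rose and 11 fell as counted, and 13 rose and 8 fell corrected, beside 55.2% and 35.9% of all tested genes. The corrected total of 21 was 13 without Pre 2'-FL 2. Between Post 2'-FL and Post control 4 rose and 15 fell as counted, and none rose and 7 fell corrected, beside 38.1% and 21.8% of all tested genes. That count of 19 was 10 without Post control 3 or Post 2'-FL 1 and 12 without Post control 2, and that of 7 was 13 without Post 2'-FL 2, 3 without Post control 3 and 1 without Post control 2 or Post 2'-FL 1. Between the Pre groups none of the 52 was called by edgeR, with 6 at an unadjusted p under 0.05. Of the 52, 6 were called in the interaction, among them Fabp5 at 1.24, Acot7 at 0.85, Lpin1 at -1.96 and Ppard at -1.61, beside 15.5% of all tested genes, and none corrected. That count of 6 was 0 without Post control 3, 1 without Post 2'-FL 3, 10 without Post 2'-FL 2 and 2 to 5 without any 1 of the other libraries. For fits with 1 library left out, the share of all tested genes called is not given here.

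Markers of bowel segment also differed between the groups. Summed distal markers (Fabp6, Slc10a2, Fgf15 and Cubn) were 13.4 to 44.0 CPM in Post 2'-FL, 77.7 to 139 CPM in Post control, 307 to 341 CPM in Pre 2'-FL and 307 to 833 CPM in Pre control, without overlap of Post and Pre. Cubn was the largest part of this sum in every library. It was 8.89 to 31.8 CPM in Post 2'-FL, 64.4 to 112 in Post control, 260 to 333 in Pre 2'-FL and 302 to 800 in Pre control. Fabp6 and Slc10a2 each overlapped between Post and Pre libraries. Fgf15 had no count in the 6 Post libraries. Over both arms 3 of 4 distal markers fell, as counted and corrected, beside 31% and 18.5% of all tested genes. Summed proximal markers were 293 to 516 CPM in Post 2'-FL, 897 to 1340 CPM in Post control, 843 to 1780 CPM in Pre 2'-FL and 1080 to 2130 CPM in Pre control. Lct was the largest part of this sum in every library, with 243 of 293 CPM in Post 2'-FL 1. Of 5 proximal markers 1 rose and 3 fell over both arms as counted, and 1 rose and 2 fell corrected. In the 2'-FL arm 1 rose and 3 fell as counted, and 1 rose and none fell corrected. Of all tested genes in this arm 25.2% rose and 30% fell as counted, and 21.1% rose and 14.8% fell corrected. Smooth muscle markers were 1290 to 1540 CPM in Post 2'-FL and 502 to 779 CPM in Post control, beside 714 to 1680 CPM in Pre 2'-FL and 857 to 1140 CPM in Pre control. Their part in the values of the 6 genes was not tested.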

How the data were processed

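RNA of 12 small bowel libraries had been made into libraries with a TruSeq kit and sequenced on a HiSeq 2000, per the labels' protocols. The authors deposited 1 table of expected counts per library, estimated read counts per gene that are not normalised, since 15.19% to 20.54% of entries are not whole. The submitters' processing notes name mm10 and DESeq; the aligner, counting program, annotation and strand are not given in the sources used here. Reads shared between genes may thus be split by estimate, and antisense reads cannot be set apart.

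The 36186 entries were summed by Entrez identifier to 35791 genes and rounded. Genes were kept with edgeR's filterByExpr by group (13158 genes), scaled by TMM and fitted by quasi-likelihood with 4 group means (edgeR 4.0.16, limma 3.58.1, R 4.3.3), leaving 8 residual degrees of freedom. The biological coefficient of variation was 0.238. Tests are two-sided, and p-values measure the spread between libraries, which nothing in the labels ties to separate mice. Standard errors are log2 fold changes over the root of F. The correction fitted natural splines with 4 degrees of freedom on log2 transcript length and on GC content to the centred log2 CPM (prior count 2) of each library, for 12656 tested genes with a length from the GENCODE annotation, and entered as offsets. It also removes any true change that goes with length or GC. Other settings were no filter, DESeq2's size factors (RLE), library totals, DESeq2 1.42.0, the replicate number as a block, and leaving out each library, also in the corrected fit (the last added after seeing the data). Counts of replicates differed by more than sampling noise, so that no library was a copy of another. Both fits were tested on simulated counts.

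The 6 genes, the 8 gene lists and the marker lists were chosen with earlier results of these data known. Named genes were the 6, the 3 smallest p per list over both arms, and the 2 nearest profiles to each of the 6. Positions of genes and promoters are from RefSeq (GRCm38.p6, the mm10 assembly).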

Additional observations from a re-analysis of the deposited data

Results flagged for a closer look

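The change of Dbi differed between the arms as counted. Its log2 change was 2.28 in the 2'-FL arm and 1.02 in the control arm, an interaction of 1.26 ± 0.39 (SE, adjusted p = 0.0441, edgeR's quasi-likelihood F test), with all 3 Post libraries above all 3 Pre libraries in each arm. Corrected for length and GC content, the changes were 0.87 and 0.93, and the interaction was -0.06 ± 0.30 (adjusted p = 0.937). Over the alternatives run as counted the interaction lay between 1.10 and 1.68.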

How the results depend on the processing

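Some counts moved by over 1.5 times, and unless stated the cause was not tested. In the control arm 1 of the 6 genes was called, but 3 without the filter and 4 by DESeq2, and 9 of the 52 other fatty acid genes by DESeq2 against 4. Between Post 2'-FL and Post control 2 were called, but 0 corrected, with or without the replicate block, and of the 52 genes 7 corrected and 8 corrected with the block, against 19. In the interaction 1 was called, but 2 without the filter or with RLE, 3 by DESeq2 and 0 with the block, corrected, or both, and of the 52 genes 3 with the block and 0 corrected, with or without the block, against 6. Library totals in place of TMM moved no such count of the 6 genes or the 52 by that much.

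Signs turned in the corrected fit (value without, then with the block). Acsl5 stood at 0.15 and 0.19 over both arms (-0.23 as counted), 0.02 and 0.04 in the control arm and 0.29 and 0.34 in the 2'-FL arm. Between the Post groups Fabp2 stood at -0.36 and -0.32, and Slc27a4 at 0.00 with the block. In the interaction Fabp1 stood at -0.41 and -0.34, Slc27a4 at 0.53 and 0.55, Acsl5 at 0.27 and 0.31 and Dbi at -0.06 and -0.05.

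Leaving out 1 library at a time, as counted and corrected together, gave these ranges. Of the 6 genes, 0 to 3 were called in the control arm, 2 to 5 in the 2'-FL arm, 0 to 3 between the Post groups and 0 to 3 in the interaction. Of the 52 genes, 0 to 8 were called in the control arm, 13 to 26 in the 2'-FL arm, 1 to 20 between the Post groups, 0 to 1 between the Pre groups and 0 to 10 in the interaction. The share of all tested genes called in each of these fits is not given here, so the counts stand without that background. Over both arms Cd36 ranged from -0.18 to 0.57 and Acsl5 from -0.30 to 0.33. In the control arm Acsl5 ranged from -0.32 to 0.19, and in the 2'-FL arm Cd36 from -1.26 to 0.10 and Acsl5 from -0.41 to 0.65. Between the Post groups Fabp1 ranged from -0.48 to 2.10, Fabp2 from -0.50 to 1.17, Slc27a4 from -0.95 to 0.14 and Dbi from -0.11 to 1.73. Between the Pre groups Fabp1 ranged from -0.04 to 1.04 and Dbi from -0.06 to 0.18. In the interaction Fabp1 ranged from -1.12 to 1.72, Slc27a4 from -0.44 to 0.94, Acsl5 from -0.22 to 0.63 and Dbi from -0.21 to 1.68.

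Correlations of same-numbered libraries ran from -0.22 to 0.42, and those of differently numbered libraries from -0.36 to 0.31. With 3 libraries a group, these values cannot decide whether replicate numbers pair the samples. With the block, Fabp1 in the control arm (adjusted p = 0.0345) and Fabp2 between the Post groups (0.0482) passed, while Dbi in the control arm (0.0543) and in the interaction (0.0622), and corrected Fabp2 in the 2'-FL arm (0.0593), did not. Over all genes, calls numbered 4722 corrected and 4427 corrected with the block against 7269 in the 2'-FL arm, 2871 and 2723 against 5013 between the Post groups, and 0 and 0, and 908 with the block, against 2040 in the interaction. Between the Pre groups they were 12 without the filter, 24 by DESeq2, 5 with the block and 3 corrected with the block, against 2 otherwise. Each of the 6 genes had at least 407 counts per library, and no setting varied the depth.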
